A study of Mus musculus with 9 samples.

Results

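Leydig cells, the androgen-producing cells between the seminiferous tubules, were read out of single cell RNA-seq of whole mouse testis at postnatal day 24. A barcode counted as a Leydig cell if it had over 1000 detected genes, under 10% of its UMIs (unique molecular identifiers, each 1 captured transcript) in mitochondrial genes, a UMI in at least 3 of Cyp11a1, Cyp17a1, Hsd3b6, Hsd3b1, Insl3 and Star, and at least 0.5% of its UMIs in these 6 genes together. Of 45132 barcodes past the filter on genes and mitochondrial UMIs, 1732 met the rule. Each of the 9 libraries was 1 C57BL/6 mouse, of which 4 were controls, 2 had a conditional knockout (cKO) of NELF-B and 3 one of TDP-43. NELF-B is a subunit of the negative elongation factor NELF, which holds RNA polymerase II in promoter-proximal pausing, and TDP-43 is an RNA-binding and DNA-binding protein encoded by Tardbp. The Cre of both cKO lines is Stra8-iCre, which a germ cell promoter switches on from the spermatogonial stage. It acts on a floxed allele of Nelfb or Tardbp opposite an allele that is null in every cell. Leydig cells lie outside the Cre lineage and carry that null allele together with an intact floxed one. The mice therefore compare Leydig cells with 1 working copy, in a testis whose germ cells the Cre targets, with those of control mice. The labels do not give the alleles of the control mice. The paper reports that some germ cells of NELF-B cKO mice escaped the Cre and kept the protein. The lower gene dose of the Leydig cell and the changed germ cells around it cannot be told apart in this design.

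Leydig cells answer luteinizing hormone, which binds the receptor encoded by Lhcgr and raises cyclic AMP. StAR then moves cholesterol into the mitochondrion, where Cyp11a1 cuts its side chain to give pregnenolone, and 3β-hydroxysteroid dehydrogenase (Hsd3b1, Hsd3b6), Cyp17a1 and Hsd17b3 carry it on to testosterone. Insl3, their peptide hormone, acts in testis descent and marks differentiated Leydig cells. In the mouse, a fetal population is replaced after birth by an adult one that arises from stromal progenitors and matures around puberty, passing through an immature stage in which 5α-reductase (Srd5a1) and Akr1c14 turn androgens into androstanediol.

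Of the 6 genes of the rule, 4 had a window of 250 bases upstream of a RefSeq start, and those of Insl3, Hsd3b6 and Hsd3b1, each with 1 annotated start, are shown without annotated exons because they are the start regions of genes that define the cells. Capitals mark the letters CAAGGNC, the core of the sites bound by NR5A1, the orphan receptor that many steroidogenic genes use, and the Insl3 window holds it at 137 and at 57 bases before the start, as CAAGGTC and CAAGGCC, both on the gene's strand. Its last 38 bases before the start are exon and are not printed, so these distances run on past the printed end. This window lies in an intron of Jak3, which is transcribed in the same direction, and the others hold no annotated gene. Neither CAAGGNC nor AGGTCA was found on either strand of the Hsd3b windows. Cyp11a1 had 2 annotated starts, which are not shown: the first had neither motif, and the second had AGGTCA 28 bases before it, in a window whose first base lies in an annotated exon. These motifs were chosen after the sequences had been read, and among 32817 windows of the same kind 15% held the first and 14% the second. All 3 are given 5′ to 3′ on the gene's strand, from GRCm38.p6.
Insl3, chr8:71689002-71689213, plus strand: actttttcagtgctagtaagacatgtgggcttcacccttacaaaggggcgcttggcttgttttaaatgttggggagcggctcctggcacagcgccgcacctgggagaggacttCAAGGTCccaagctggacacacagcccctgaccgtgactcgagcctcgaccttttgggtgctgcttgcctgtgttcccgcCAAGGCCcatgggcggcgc
Hsd3b6, chr3:98814444-98814693, minus strand: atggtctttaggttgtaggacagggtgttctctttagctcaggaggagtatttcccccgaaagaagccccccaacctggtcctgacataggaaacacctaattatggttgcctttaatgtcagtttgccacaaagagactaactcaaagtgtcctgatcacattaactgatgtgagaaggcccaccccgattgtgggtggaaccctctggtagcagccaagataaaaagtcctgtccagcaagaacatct
Hsd3b1, chr3:98859795-98860044, minus strand: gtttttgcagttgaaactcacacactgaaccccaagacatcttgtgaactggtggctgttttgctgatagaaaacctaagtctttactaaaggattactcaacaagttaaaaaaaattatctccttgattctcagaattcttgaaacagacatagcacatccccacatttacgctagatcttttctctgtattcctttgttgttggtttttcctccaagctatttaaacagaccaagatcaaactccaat

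The genes of the rule were led by Cyp17a1 and Cyp11a1. Levels are in CPM, the UMIs of a gene per 1000000 UMIs summed over the Leydig cells of a mouse. Values are listed in the order of the replicate numbers, which the labels do not link between groups. For these 6 genes they are a description without a test. Cyp17a1 stood at 4581, 3485, 2882 and 2477 CPM in control, 4569 and 2638 in NELF-B cKO and 3189, 2406 and 2933 in TDP-43 cKO. Cyp11a1 stood at 3893, 2477, 3443 and 3285 CPM in control, 3038 and 2221 in NELF-B cKO and 2198, 2271 and 2612 in TDP-43 cKO cells. The groups overlapped for both enzymes. Hsd3b6, the 3β-hydroxysteroid dehydrogenase of adult Leydig cells, had 1648, 1253, 1327 and 829 CPM in control, 1723 and 2388 in NELF-B cKO and 1749, 1347 and 1511 in TDP-43 cKO mice. Hsd3b1, its near-identical neighbour on the same chromosome, had 781, 1043, 1079 and 1415 CPM in control, 667 and 900.2 in NELF-B cKO and 671, 1294 and 868 in TDP-43 cKO cells, and reads shared by the pair could have been lost or split in the counting. Star, the cholesterol carrier, had 440.4, 465, 335 and 284 CPM in control, 515 and 759 in NELF-B cKO and 601, 303 and 353 in TDP-43 cKO cells. Insl3 had 149.5, 100.4, 171 and 224 CPM in control, 206 and 209 in NELF-B cKO and 304, 285 and 226 in TDP-43 cKO cells. Star and Hsd3b6 were above every control mouse in both NELF-B cKO mice, as were 6.90% of all genes tested. Insl3 was above every control mouse in all 3 TDP-43 cKO mice, as were 5.17%, though only by 226 against 224 CPM. All 6 genes were detected together in 50 to 80.9% of the Leydig cells of a mouse.

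**Figure D1:**
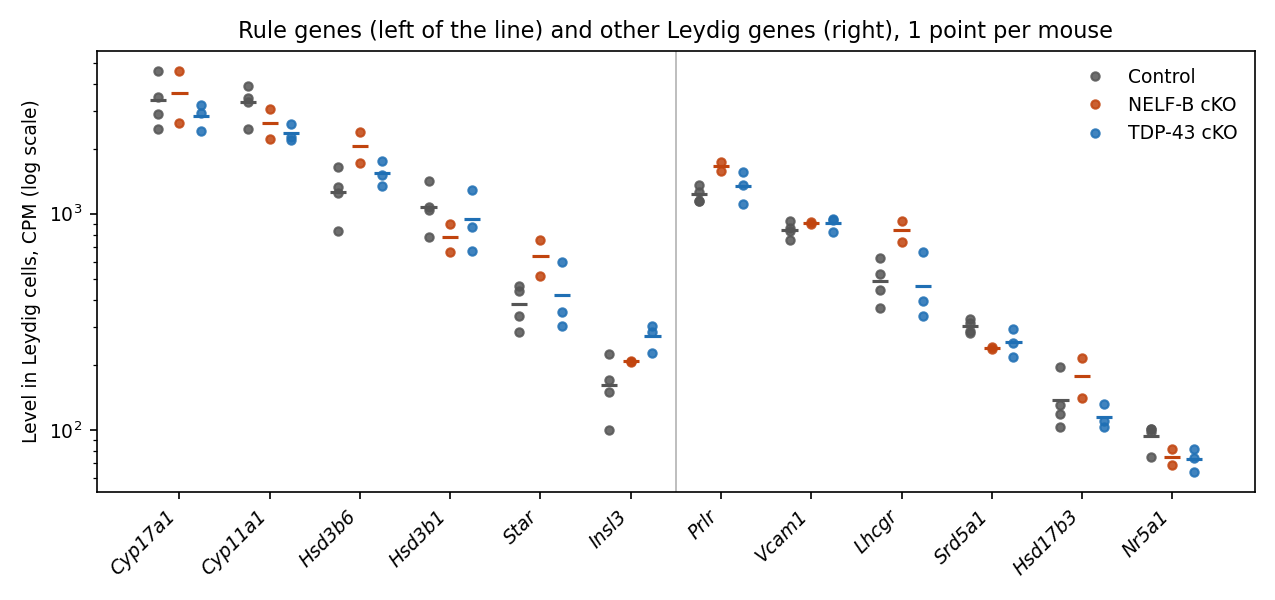
CPM per mouse, on a log axis, of the 6 genes of the rule (left of the line) and 6 other genes of Leydig cells (right), with 1 point per mouse and a bar at the group mean. Cyp17a1 and Cyp11a1 lie above the other genes in all 9 mice except that Hsd3b6 exceeded Cyp11a1 in NELF-B cKO replicate 2, and both NELF-B cKO mice lie above all 4 control mice for Lhcgr and Prlr.

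Genes that the rule did not use carried the same identity. Lhcgr was detected in 89.3 to 100% of the Leydig cells of a mouse, against 0.332 to 16.7% of Sertoli cells chosen by a rule of the same form. With each cell thinned to 2000 UMIs the shares were 47.7 to 75.9% and 0 to 5.73%. The prolactin receptor Prlr was detected in 98.2 to 100% of Leydig cells, at 1114 to 1739 CPM, and Vcam1, an adhesion molecule of adult Leydig cells, in 97.6 to 100%, at 757 to 945 CPM. Median depth was 16578 to 30406 UMIs per Leydig cell and 2050 to 24396 per Sertoli cell. Nr5a1, which encodes the orphan receptor named above, stood at 63.7 to 101 CPM in Leydig cells and at 52.9 to 77.9 in Sertoli cells, so its level set the types apart little.

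Markers of several stages were present. The immature marker Srd5a1 stood at 218 to 325 CPM and Akr1c14 at 8.67 to 33.3, beside 103 to 215 CPM of Hsd17b3, the enzyme of the last step to testosterone. Adult markers outside the rule ranged widely: beside Prlr and Vcam1, Lhcgr stood at 338 to 929.8 CPM, while Ptgds stood at 3.24 to 29.7, Sult1e1 at 2.43 to 29.2 and Hsd11b1 at 2.36 CPM or less. The fetal markers Thbs2, Mc2r and Crhr1 had at most 0.892 CPM in any mouse, while Ren1 had 4.86 to 36.5. The stromal progenitor gene Pdgfra was detected in 67.7 to 91.6% of Leydig cells, at 113 to 210 CPM, against 1.73 to 29.8% of Sertoli cells, which were shallower. With each cell thinned to 2000 UMIs the shares were 10.8 to 34.1% and 1.09 to 3.21%. Igf1, at 1059 to 1424 CPM in stromal cells, had 2.43 to 21.6 CPM in Leydig cells.

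The 30 genes of at least 100 CPM with the highest ratio to the other barcodes past the filter are again a description, since the cells were chosen by 6 of the genes on the same counts. The ratio sets all Leydig cells against all other barcodes, pooled over mice that gave from 37 to 549 Leydig cells, and the lowest ratio within 1 mouse is given beside it. The highest ratio was 120, for Cyp17a1, with 34.0 as the lowest in 1 mouse. Outside the rule, the highest were Hao2, a peroxisomal hydroxyacid oxidase, at a ratio of 42.3 (lowest 9.97), the cystatin gene Cstdc2 at 35.9 (8.55) and Lcn2, a secreted iron-siderophore carrier, at 34.0 (7.54). By the lowest ratio in 1 mouse, Fabp3, Hsd17b3, Fads2 and Mrap, at 8.09 to 8.64, stood above Lcn2. Mrap, which carries the ACTH receptor to the cell surface, had a ratio of 32.8 and 266 to 506 CPM, although Mc2r, the ACTH receptor itself, was at or near 0. The fatty acid carrier Fabp3 (ratio 32.2) had 2333 to 4630 CPM and the aldo-keto reductase Akr1cl (25.2) had 2953 to 4278 CPM, levels of the same order as Cyp17a1. The lipid droplet coat protein Plin1 (21.5), the desaturase Fads2 (22.0) and the kallikreins Klk1b21 (28.2) and Klk1b24 (28.1) completed the lipid and secreted genes of this group. Some of these genes varied more between mice than the steroidogenic ones: Ass1, the arginine-making enzyme of the urea cycle, ran from 372 to 1923 CPM and Ces1d, a carboxylesterase, from 21.5 to 242 CPM, and both were highest in NELF-B cKO replicate 2. Plin1 was steady, at 131 to 182 CPM.

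Markers of other cells were low, with exceptions. Rhox5, a Sertoli gene, had 0.788 to 9.09 CPM in Leydig cells and 212 to 371 in Sertoli cells. Defb19 and Clu, both in the Sertoli list, had 1069 to 1493 and 725 to 1146 CPM in Leydig cells, against 5826 to 8478 and 3226 to 6387 in Sertoli cells and 290 to 1013 and 55.0 to 314 in stromal cells, so Leydig cells held a level between the other types. Summed over 8 genes, endothelial markers reached 7.88 to 32.9 CPM.

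Clustering the 1732 cells without the 6 genes of the rule, after centring each gene within its mouse, gave 8 clusters, described here by their leading genes without a test. Clusters 1 to 4 held 540, 359, 264 and 263 cells. Cluster 1 was led by Agxt2 and Asb4, cluster 2 by Mia, Serpina3a, Trf and Ces1d and cluster 3 by the kallikreins Klk1b27, Klk1b24 and Klk1b21 and the lipogenic gene Thrsp, all by less than 3-fold. Cluster 4 was led by the retinoic acid-degrading enzyme Cyp26b1, at 163 CPM against 6.96 in the other Leydig cells, with Smoc2 (202 against 21.7) and Ntrk2 (70.0 against 15.1). Cluster 5, 162 cells, had 1758 CPM of Lcn2 against 290 CPM in the other Leydig cells, more of the complement genes C4b and C3, and the highest median share of UMIs in the rule genes, 1.21%. Cluster 6, 60 cells, was led by the replication genes Tk1, Rrm2 and Tyms and the histone gene Hist1h1b. Rrm2 had 259 CPM there and 9.78 elsewhere. Cluster 8, 36 cells, had Pgbd5, Inha, Kcnk3 and Agt with Cyp21a1, Akr1b7 and Srd5a2. Cyp21a1 is the 21-hydroxylase of the adrenal cortex, and it had a UMI in 13.9% of these cells. Clusters 1 to 6 each had cells of all 9 mice.

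Cluster 7, 48 cells, was led by the macrophage genes F13a1, Cbr2, Cd86 and Laptm5, and F13a1 had 325 CPM there and 0.843 in the other Leydig cells. Its cells had a median of 45898 UMIs, the highest of the 8 clusters. NELF-B cKO replicate 1 gave 29 of its 319 Leydig cells to this cluster, NELF-B cKO replicate 2 gave 7 of 549 and TDP-43 cKO replicate 1 gave 10 of 431. Control replicates 3 and 4 gave 1 of 65 and 1 of 37, and the remaining mice none. These barcodes met the Leydig rule and were kept. No doublet caller was run, and whether they are doublets was not tested. Between 0 and 35 Leydig cells of a mouse also met the rule of another class, and a repeat of every test without them is among the alternatives.

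Leydig cells made up a larger share of the barcodes in the cKO mice. The share was 1.74% (95% Wilson interval 1.47 to 2.06), 0.485% (0.358 to 0.657), 1.27% (0.996 to 1.61) and 0.758% (0.551 to 1.04) in the control mice. The intervals cover counting error only. It was 5.66% (5.08 to 6.29) and 18.4% (17.1 to 19.8) in NELF-B cKO and 10.9% (9.98 to 11.9), 1.85% (1.43 to 2.40) and 2.93% (2.41 to 3.54) in TDP-43 cKO. All cKO mice were above all control mice, although TDP-43 cKO replicate 2 and control replicate 1 had overlapping intervals. The means were 1.06% ± 0.558 (SD, n = 4), 12.0% ± 9.02 (n = 2) and 5.23% ± 4.95 (n = 3). The mean log2 share was 3.43 higher in NELF-B cKO than in control mice, a 10.8-fold difference, with p = 0.133 in the exact two-sided permutation test, the smallest p that 4 against 2 mice allow. In TDP-43 cKO mice it was 2.04 higher, 4.10-fold, with p = 0.0571, the smallest that 4 against 3 allow in the exact test. Without TDP-43 cKO replicate 1 this difference was 2.45-fold, and without NELF-B cKO replicate 1 or 2 the NELF-B difference was 19.4-fold or 5.96-fold. The controls had 4879 to 8457 barcodes past the filter and the cKO mice 2982 to 5638, and the part of that denominator in the difference was not tested. Among barcodes of at least 2000 UMIs the differences were 7.69-fold and 2.53-fold, and TDP-43 cKO mice no longer stood clear of the controls (p = 0.171, exact permutation test): control replicate 1 had 133 Leydig cells among 4303 barcodes, TDP-43 cKO replicate 2 had 56 among 2851 and replicate 3 had 101 among 3343. With at least 5 of the 6 genes required, the TDP-43 difference was 3.94-fold and the groups overlapped too (p = 0.114, exact permutation test).

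Per Sertoli cell, a somatic denominator without germ cells, the groups parted differently. There were 0.764, 0.133, 0.417 and 0.138 Leydig cells per Sertoli cell in the control mice, 1.32 and 2.00 in NELF-B cKO, and 0.729, 0.186 and 0.312 in TDP-43 cKO. The NELF-B cKO mice were above every control mouse, and the TDP-43 cKO mice lay within the controls' range. The NELF-B difference was 2.56 on the log2 scale, 5.88-fold, with p = 0.133 in the exact permutation test, again the smallest possible. The TDP-43 difference was 0.33, 1.26-fold, with p = 0.743 in the exact permutation test, and it turned to −0.20 without TDP-43 cKO replicate 1. Per stromal cell the means were 0.830 ± 0.413 over the 4 controls, 0.986 ± 0.210 over both NELF-B cKO mice and 0.455 ± 0.05004 over the 3 TDP-43 cKO mice (SD), with overlap between control and each cKO group. Per macrophage they were 0.792 ± 0.310, 2.11 ± 0.240 and 0.998 ± 0.438. Median UMIs per Sertoli cell were 2050, 2730, 2496 and 2682 in control and 2474 and 3235.5 in NELF-B cKO mice. In TDP-43 cKO mice they were 24396, 6416 and 19381. The part of this depth in the numbers of Sertoli cells past the filter on genes was not tested. How many cells of each kind survived dissociation was not measured.

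**Figure D2:**
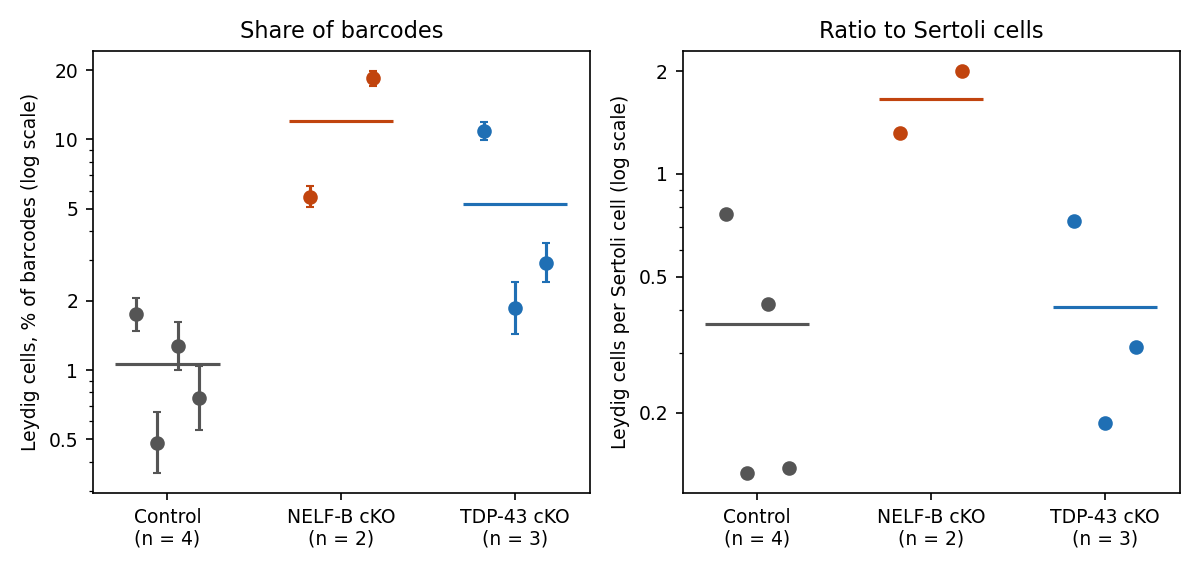
Leydig cells as a percentage of barcodes past the filter (left, with 95% Wilson intervals) and per Sertoli cell (right), both on log axes, with 1 point per mouse and a bar at the group mean. All 5 cKO mice lie above the 4 control mice on the left, where the highest control has 1.74%, while on the right only the 2 NELF-B cKO mice, at 1.32 and 2.00, do.

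Depth and stray RNA bear on the comparisons of genes. The libraries held 119203347 to 159407373 UMIs, and the Leydig cells of a mouse 878040 to 17457097 of them. Of 44872 distinct barcodes past the filter, 260 occurred in more than 1 library, none of them among the Leydig cells. Free RNA was read in barcodes of 1 to 100 UMIs, too few for a cell. These had 2.38 to 3.39% of their UMIs in 25 germ cell genes in the control mice, 2.68 and 0.561% in NELF-B cKO and 0.233, 1.00 and 0.811% in TDP-43 cKO. In Leydig cells the same genes took 0.106 to 0.293%, 0.142 and 0.0218%, and 0.00997, 0.0486 and 0.0448%. The 9 mice stood in the same order in Leydig cells as in free RNA. The ratio of the share in Leydig cells to that in free RNA was 3.88 to 8.66% in the 9 mice. NELF-B cKO replicate 1 had a free germ cell RNA share within the controls' range and NELF-B cKO replicate 2 did not.

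**Figure D3:**
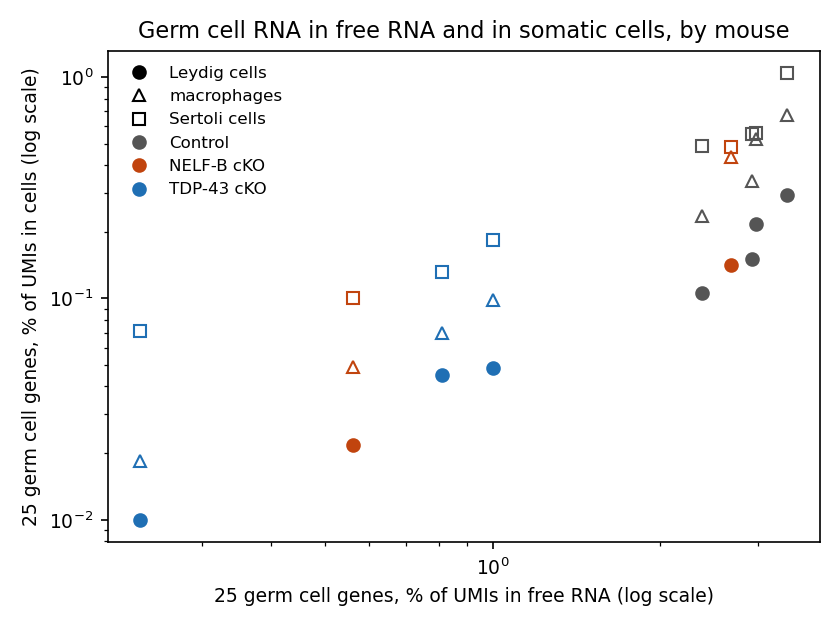
Percentage of UMIs in 25 germ cell genes in somatic cells (y axis) against that in barcodes of 1 to 100 UMIs of the same mouse (x axis), both on log axes, with 1 symbol per mouse and cell class. Leydig cells (filled circles) run from 0.00997% at 0.233% of free RNA to 0.293% at 3.39%, below macrophages and Sertoli cells of the same mouse.

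Nelfb was lower in the Leydig cells of the NELF-B cKO mice. It had 29.9, 21.05, 18.1 and 25.1 CPM in control, 8.73 and 10.9 in NELF-B cKO and 22.5, 19.6 and 18.2 in TDP-43 cKO, so that both NELF-B cKO mice lay below every other mouse. The log2 difference from control was -1.23 ± 0.24 (SE), adjusted p = 0.340 in edgeR's quasi-likelihood test, and the unadjusted p was 0.000365. DESeq2 called it, at −1.24 and adjusted p = 0.0380, and adjusted p ran from 0.0380 to 0.975 over the alternatives. The same held outside Leydig cells: the NELF-B cKO mean was 0.417 times the control mean in Leydig cells, 0.341 in Sertoli cells, 0.489 in stromal cells and 0.449 in macrophages, and 0.193 in free RNA. Tardbp had 59.00, 76.1, 63.05 and 80.9 CPM in control and 64.6, 41.9 and 49.1 in TDP-43 cKO Leydig cells, with overlap, a log2 difference of -0.36 ± 0.17 (SE), adjusted p = 0.362. In the other classes all 3 TDP-43 cKO mice lay below every control, at 75.0 to 81.0 against 94.4 to 109.6 CPM in Sertoli cells, 49.2 to 52.7 against 58.0 to 105.2 in stromal cells and 46.4 to 55.2 against 58.7 to 105.8 in macrophages, values that were not tested. The TDP-43 cKO mean was 0.744 times the control mean in Leydig cells, 0.754 in Sertoli cells, 0.638 in stromal cells, 0.653 in macrophages and 0.749 in free RNA. The UMIs of Tardbp come from 3′ libraries and were not located against the deleted exon, so whether they reflect the deletion was not tested. The other subunits Nelfa, Nelfcd and Nelfe differed from control by −0.40 to 0.02 on the log2 scale in either cKO.

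No gene passed an adjusted p of 0.05 between NELF-B cKO and control Leydig cells in edgeR, of 12685 tested (0%). At an unadjusted p under 0.05 there were 1026 (8.09%), 551 of them higher (4.34%) and 475 lower (3.74%), and DESeq2 called 28 (0.221%), 18 higher and 10 lower. Of the 10 lower ones 8 had a higher CPM in the controls' free RNA than in their Leydig cells, against 47.6% of all genes tested, and after free RNA was subtracted 6 of the 10 and 15 of the 18 were still called. Leaving out 1 mouse gave 0 to 5 edgeR calls, 5 without NELF-B cKO replicate 1. Both NELF-B cKO mice lay above all 4 control mice for 875 genes (6.90%) and below them for 862 (6.80%). Values are therefore given below without a call unless DESeq2 is named, and higher and lower describe the mice measured. The median log2 difference over all genes tested was −0.00, and the genes of the rule are left out of the counts per list.

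The LH receptor and prolactin receptor were among the genes with higher values in NELF-B cKO Leydig cells. Lhcgr had 525, 624, 445 and 366 CPM in control and 744 and 929.8 in NELF-B cKO. The groups did not overlap, and the log2 difference was 0.81 ± 0.26 (SE), adjusted p = 0.508. Prlr had 1355, 1262, 1145 and 1150.3 CPM against 1739 and 1578, a log2 difference of 0.47 ± 0.13 (SE), adjusted p = 0.463. The groups were again apart, with little spread among the controls. Of 13 genes tested of the steroidogenesis list, 4 had both NELF-B cKO mice above all control mice and 1 below, and the list's median log2 difference was 0.22 (−0.00 with the cells thinned). H6pd, which supplies NADPH in the endoplasmic reticulum, had 43.8, 39.7, 27.6 and 35.3 CPM in control and 68.7 and 59.7 in NELF-B cKO mice (0.83 ± 0.20 (SE), adjusted p = 0.443). Cyb5a, the cytochrome b5 that aids the lyase step of Cyp17a1, had 341, 303, 296 and 249 CPM against 345 and 437, apart by a small gap. Srd5a1, the 5α-reductase of immature cells, went the other way, at 286, 313, 281 and 325 against 241 and 236 CPM, a log2 difference of -0.30 ± 0.13 (SE), adjusted p = 0.607. Of the adult markers outside the rule, 3 of 6 lay above every control in both NELF-B cKO mice, namely Lhcgr, Prlr and Ptgds, at a median of 0.43 over the list (0.23 with the cells thinned).

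Genes of LH signalling and transcription counted 7 of 26 above and 1 below, with a median of 0.03 (−0.10 without NELF-B cKO replicate 2, 0.21 without replicate 1). Tcf21, a factor of stromal progenitors, had 47.1, 57.5, 45.7 and 62.6 CPM in control and 92.2 and 164 in NELF-B cKO mice (1.34 ± 0.42 (SE), adjusted p = 0.506). Its difference rested partly on replicate 2, and was 0.78 on the log2 scale without that mouse. Nr3c1, the glucocorticoid receptor, had 31.96, 36.4, 22.9 and 38.7 CPM against 48.4 and 45.4. Crem, a cyclic AMP-responsive factor that germ cells also express strongly, had 80.3, 89.04, 74.9 and 69.5 CPM against 42.9 and 61.4. Free RNA of control replicate 1, the mouse with the highest germ cell share there, held 347 CPM of Crem. The part of free RNA in the Crem difference was not tested. Among hormones and receptors 7 of 20 were above and 1 below, with a median of 0.37 (0.18 to 0.46 over the alternatives). Fgfr1 had 15.6, 7.29, 17.3 and 18.2 CPM against 34.8 and 30.7, and Pdgfa, a ligand of the stromal receptor Pdgfra, had 10.7, 5.67, 17.3 and 10.3 against 19.5 and 27.2. Inha, the α-subunit of inhibin, had 529, 669, 1084 and 698 CPM against 362 and 543, with overlap.

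Of 20 genes of cholesterol synthesis 1 (5%) lay above in both NELF-B cKO mice, against 6.90% of all genes tested, and none below. The list's median was 0.17 (−0.08 without NELF-B cKO replicate 2, 0.39 without replicate 1). The 1 gene above was Nsdhl, with 126, 121, 99.3 and 105 CPM against 136 and 167. Of 19 genes of uptake, storage and control 3 lay above and none below, at a median of 0.19 (0.04 without NELF-B cKO replicate 2, 0.33 without replicate 1). Apoe, the lipoprotein component that macrophages also make in quantity, had 1245, 859, 1009.6 and 735 CPM in control mice and 1851 and 2235 in NELF-B cKO mice. The log2 difference was 1.12 ± 0.20 (SE), adjusted p = 0.269, with adjusted p from 0.00287 to 0.975 over 21 alternatives. Without cluster 7, the one led by macrophage genes, Apoe had 1245, 859, 1007 and 699 CPM against 1492 and 2205, and the mice stayed apart. The NELF-B cKO mean of Apoe was 2.12 times the control mean in Leydig cells, 4.85 in Sertoli cells, 1.41 in stromal cells, 2.76 in macrophages and 21.2 in free RNA. Cyp27a1, which makes 27-hydroxycholesterol, had 32.8, 29.95, 33.1 and 17.1 CPM against 37.99 and 84.4, and its difference of 1.14 was 0.36 without replicate 2.

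Some immediate early genes and cytokines had higher values in both NELF-B cKO mice than in every control, none of them past the adjusted threshold in edgeR. Of 22 immediate early genes tested, 9 had an unadjusted p under 0.05 in the higher direction and none in the lower, at a median of 0.41 (0.18 without NELF-B cKO replicate 2, 0.63 without replicate 1), and 6 had both mice above all controls. Dusp1, a phosphatase that ends MAP kinase signals, had 127, 142, 116 and 105 CPM against 209 and 199.9. Its log2 difference was 0.77 ± 0.15 (SE), adjusted p = 0.340, and DESeq2 called it at adjusted p = 0.0203, with adjusted p from 0.0165 to 0.975 over 21 alternatives. The NELF-B cKO mean of Dusp1 was 1.67 times the control mean in Leydig cells, 1.23 in Sertoli cells, 0.847 in stromal cells, 0.795 in macrophages and 3.46 in free RNA. Ier2 had 250.3, 357, 276 and 244 CPM against 449 and 427, and Klf4 had 180.3, 159, 199 and 133 against 245 and 272. The most abundant members, Fos, Jun and Egr1, overlapped between groups. These genes also answer tissue dissociation, and the part of that step was not tested. Heat shock and unfolded protein genes had a median of 0.01, or −0.14 without NELF-B cKO replicate 2. Of 12 cytokine and adhesion genes 5 lay above and none below, at a median of 0.62 (0.32 without control replicate 1, 0.91 without control replicate 3). Cxcl10, a chemokine induced by interferon, had 298, 642, 585 and 296 CPM against 952 and 971, a log2 difference of 1.11 ± 0.31 (SE), adjusted p = 0.463. Without cluster 7 it had 298, 642, 582 and 313 CPM against 983 and 975. It was not particular to Leydig cells: the NELF-B cKO mean of Cxcl10 was 2.11 times the control mean there and 2.70 in stromal cells. The ratio was 4.97 in Sertoli cells, 1.05 in macrophages and 16.3 in free RNA, and the part of stray RNA in these was not tested. Cxcl1, a neutrophil chemokine, had 295, 516, 435 and 263 CPM against 544 and 798, and Ccl2, a monocyte chemokine, 17.2, 17.8, 36.3 and 15.9 against 57.1 and 39.5. Without cluster 7 Ccl2 had 17.2, 17.8, 36.9 and 14.4 CPM against 41.5 and 37.1, which leaves almost no gap. Genes of the interferon and antigen presentation list had no member past an unadjusted p of 0.05 among 17, and a median of 0.07 (−0.35 without NELF-B cKO replicate 2, 0.34 without replicate 1).

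Macrophage transcripts were above every control in both NELF-B cKO mice and in TDP-43 cKO replicate 1. The 11 macrophage markers summed to 22.7 to 121 CPM in control Leydig cells and 598 and 168 in NELF-B cKO Leydig cells. In TDP-43 cKO Leydig cells they summed to 243, 25.9 and 22.7 CPM. Of 10 tested, 8 had an unadjusted p under 0.05 in the higher direction in NELF-B cKO mice, and 5 lay above every control. Pf4 had 2.05, 1.62, 1.58 and 1.14 CPM against 89.5 and 13.9, and without cluster 7 it had 2.05, 1.62, 1.61 and 0 against 9.57 and 2.62. The 5 blood genes summed to 0 to 4.05 CPM in control and 8.86 and 47.4 in NELF-B cKO Leydig cells. Stromal list genes had a median of 0.50, or 0.12 without NELF-B cKO replicate 2 and 1.04 without replicate 1, and 4 of 11 lay above every control, among them Tcf21. The part of these cells in the differences above was not tested beyond the values without cluster 7. Cp, the copper-carrying ferroxidase, chosen after its values were seen, had the lowest adjusted p in DESeq2: 124, 111, 188 and 113 CPM in control, 386 and 334 in NELF-B cKO and 243, 171 and 211 in TDP-43 cKO mice. DESeq2 called it at adjusted p = 9.84e-07 and edgeR did not (1.46 ± 0.20 (SE), adjusted p = 0.240), with adjusted p from 9.84e-07 to 0.975 over 21 alternatives. Without control replicate 3, the highest control mouse, edgeR called Cp as well, at 1.67 on the log2 scale and adjusted p = 0.0241. Cp was higher in other classes as well, where the NELF-B cKO mean was 6.51 times the control mean in Sertoli cells, 1.38 in stromal cells, 1.62 in macrophages and 14.6 in free RNA, against 2.69 in Leydig cells. In free RNA the genes of the rule took 0.0540 and 0.144% of UMIs in the NELF-B cKO mice and at most 0.0128% in control mice. The part of stray RNA in the Sertoli and free RNA ratios of Apoe, Dusp1, Cxcl10 and Cp was not tested.

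**Figure D4:**
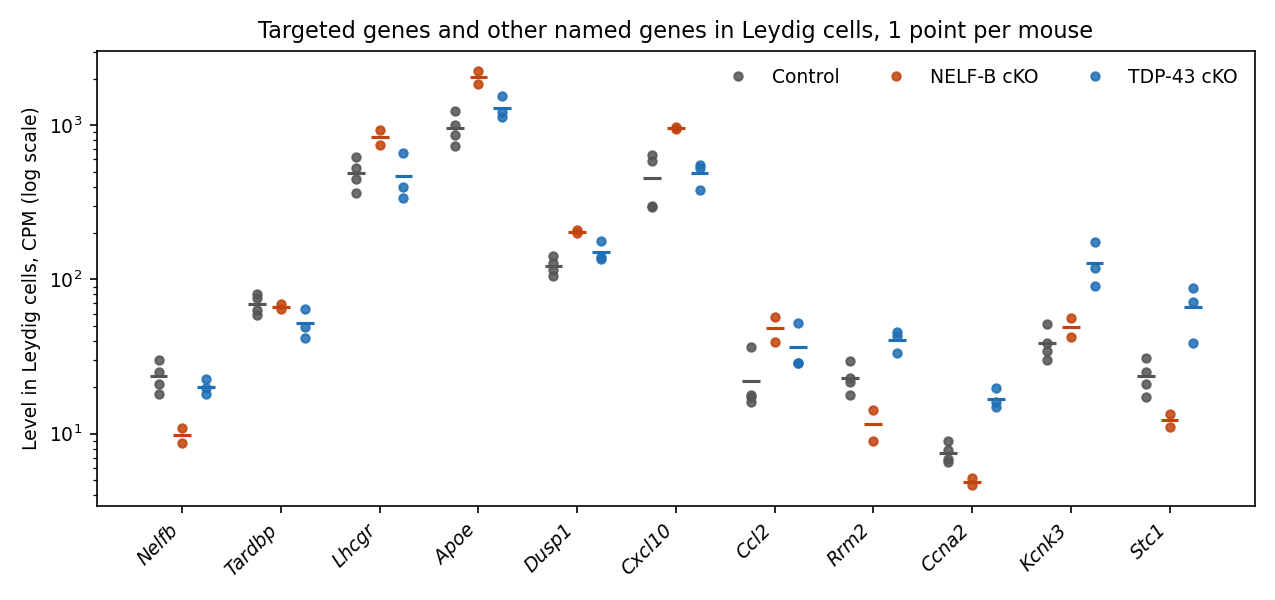
CPM per mouse in Leydig cells, on a log axis, of the targeted genes and of 9 other genes the text names, with 1 point per mouse and a bar at the group mean. Nelfb is lowest in the 2 NELF-B cKO mice (8.73 and 10.9), Lhcgr, Apoe, Dusp1 and Cxcl10 are highest there, and Kcnk3 and Stc1 are highest in the 3 TDP-43 cKO mice.

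Between TDP-43 cKO and control Leydig cells edgeR called no gene of 12685 (0%). The median over all genes tested was 0.01. At an unadjusted p under 0.05 there were 1983 (15.6%), 609 higher (4.80%) and 1374 lower (10.8%), and DESeq2 called 704 (5.55%), 68 higher and 636 lower. The edgeR count varied with the mice in the fit: it was 842 without NELF-B cKO replicate 2, 716 without NELF-B cKO replicate 1, 4 without TDP-43 cKO replicate 1, and 552 with only the mice compared in the fit, 59 higher and 493 lower. With only these mice and free RNA subtracted it was 62, 11 higher and 51 lower. All 3 TDP-43 cKO mice lay above all control mice for 656 genes (5.17%) and below them for 1294 (10.2%). Genes more abundant in free RNA made up most of the lower side. Of the 636 genes that DESeq2 called lower, 617 (97.0%) had a higher CPM in the controls' free RNA than in their Leydig cells, against 47.6% of all genes tested. After free RNA was subtracted in proportion to the germ cell share of each mouse, 123 of the 636 and 24 of the 68 higher ones were still called. Genes called lower after the subtraction still included Clgn, of the germ cell list that set its size. Its log2 difference was −6.79 in DESeq2 after subtraction and −4.15 in edgeR without it. Counts that fell below 0 were set to 0, and the part of leftover germ cell RNA in the 123 was not tested. Of the germ cell list, 19 of 25 had an unadjusted p under 0.05 in the lower direction. Ldhc, the lactate dehydrogenase of spermatocytes, had 725, 213, 518 and 328 CPM in control and 5.01, 95.5 and 52.03 in TDP-43 cKO Leydig cells. Cyp19a1, aromatase, lay on the same side, at 18.4, 7.29, 18.1 and 9.11 against 0.0619, 0.892 and 0 CPM, with 1, 1 and 0 UMIs in TDP-43 cKO, and in DESeq2 adjusted p was 2.66e-05, with adjusted p from 2.66e-05 to 0.296 over 19 alternatives. Free RNA held 76.5, 198, 93.0 and 114 CPM of it in control and 4.23, 87.4 and 75.8 in TDP-43 cKO mice, more than the Leydig cells of the same mouse in every case, and whether its transcripts come from Leydig cells was not tested.

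The steroidogenic genes mostly overlapped control in TDP-43 cKO Leydig cells. Of 13 tested none lay above every control mouse and 1 (7.69%), Cyp19a1, below, against 10.2% below over all genes tested. The median was −0.21 (−0.09 without TDP-43 cKO replicate 3). Lhcgr had 525, 624, 445 and 366 CPM in control and 662, 338 and 396 in TDP-43 cKO mice, with overlap and a log2 difference of -0.05. Hsd17b3 had 196, 104, 118 and 131 against 110.4, 131 and 103 CPM, also with overlap. Of 26 genes of LH signalling and transcription 3 were above and 2 below, with Nr3c1 at 31.96, 36.4, 22.9 and 38.7 CPM in control and 51.96, 40.2 and 42.1 in TDP-43 cKO mice (0.51 ± 0.18 (SE), adjusted p = 0.187). Of 20 hormones and receptors 3 were above and none below, at a median of 0.31 (0.09 with the cells thinned). Insr, the insulin receptor, had 23.8, 27.5, 18.9 and 27.3 CPM against 39.2, 33.02 and 37.99, and Fgfr1 had 15.6, 7.29, 17.3 and 18.2 against 35.6, 23.2 and 19.4. Among the cholesterol genes Plin2, a coat protein of lipid droplets, had 82.4, 59.9, 65.4 and 64.9 CPM against 95.1, 98.2 and 101, a log2 difference of 0.53 ± 0.14 (SE), adjusted p = 0.0950. The cholesterol synthesis median was 0.06 (−0.06 with the cells thinned) and the immediate early median 0.23 (0.13 with the cells thinned, 0.38 without control replicate 2), with 1 of 20 and 1 of 22 genes above every control. These counts were 5 and 4.55% of the genes tested in the 2 lists, against 5.17% over all genes tested. Among mitochondrial genes 3 of 13 had an unadjusted p under 0.05 in the lower direction, at a median of −0.19. This median was −0.10 without TDP-43 cKO replicate 1 and −0.32 with free RNA subtracted. With only the groups compared in the fit and free RNA subtracted it was −0.33. The filter on barcodes had capped the share of UMIs in these genes, so their values are a description and cannot test a difference.

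Some cell cycle genes had higher values in TDP-43 cKO Leydig cells, none of them past the adjusted threshold in edgeR. Of 25 tested, 11 had an unadjusted p under 0.05 in the higher direction and none in the lower, and 7 had all 3 mice above every control, at a median of 0.42, or 0.09 with the cells thinned. Ccna2, cyclin A2, had 6.56, 8.90, 7.88 and 6.83 CPM in control and 14.8, 19.6 and 16.1 in TDP-43 cKO mice. The log2 difference was 1.16 ± 0.25 (SE), adjusted p = 0.0872, and in DESeq2 adjusted p was 0.0429, with adjusted p from 0.0242 to 0.296 over 20 alternatives. The TDP-43 cKO mean of Ccna2 was 2.24 times the control mean in Leydig cells, 0.701 in Sertoli cells, 1.90 in stromal cells, 1.20 in macrophages and 3.02 in free RNA. Rrm2, the ribonucleotide reductase subunit of S phase, had 29.5, 17.8, 22.9 and 21.6 CPM against 33.3, 45.5 and 42.9, and Tyms, thymidylate synthase, 36.5, 29.95, 25.2 and 22.8 against 40.3, 58.00 and 53.3. Without cluster 6, the one led by replication genes, Rrm2 had 9.86, 12.9, 2.51 and 16.3 CPM in control and 14.6, 15.8 and 23.6 in TDP-43 cKO mice, and the groups overlapped. Ccna2 came to overlap too, at 0.429, 6.03, 0.838 and 1.25 against 7.15, 2.96 and 8.62 CPM. Tyms stayed apart, at 18.4, 19.0, 10.9 and 11.3 against 24.7, 29.6 and 33.1 CPM. With all clusters kept, Mki67 overlapped between the groups, at 22.5, 29.1, 62.3 and 66.1 CPM against 45.5, 43.7 and 71.03. With each cell thinned to 2000 UMIs, cells with a UMI in at least 4 of 8 division genes made up 1.50, 0, 3.08 and 2.70% of Leydig cells in control, 1.57 and 0.730% in NELF-B cKO and 2.56, 3.57 and 4.95% in TDP-43 cKO mice, against 0 to 2.20% of Sertoli cells, 0 to 5.88% of stromal cells and 3.05 to 20.3% of macrophages. The stromal range covers every Leydig value. The unthinned shares, 2.73 to 18.8% against 7.51 to 18.6% in Sertoli cells, overlapped that background.

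Outside the lists, and chosen after their values were seen, Kcnk3, Gem and Lama2 had higher values in TDP-43 cKO than in control Leydig cells. Kcnk3, an acid-sensitive potassium channel, had 38.5, 51.8, 29.9 and 34.2 CPM in control, 42.5 and 56.5 in NELF-B cKO and 91.1, 174 and 118 in TDP-43 cKO mice. The log2 difference from control was 1.72 ± 0.26 (SE), adjusted p = 0.0872, and DESeq2 called it at adjusted p = 1.08e-05, with adjusted p from 2.05e-06 to 0.230 over 21 alternatives. Kcnk3 is among the leading genes of cluster 8. TDP-43 cKO mice gave 8 of 431, 5 of 56 and 4 of 101 Leydig cells to it and the controls 1 of 133, 2 of 41, 3 of 65 and 0 of 37, shares that overlap. Without that cluster Kcnk3 had 37.5, 24.7, 27.8 and 34.2 CPM against 81.2, 70.2 and 67.2, still apart. Gem, a small GTP-binding protein, had 84.4, 89.04, 91.4 and 117 CPM in control, 180.2 and 126 in NELF-B cKO and 151, 244 and 224 in TDP-43 cKO cells (TDP-43 cKO against control 1.14 ± 0.20 (SE), adjusted p = 0.0872, DESeq2 adjusted p = 0.000159, adjusted p from 0.000159 to 0.230 over 21 alternatives). Lama2, the laminin α2 chain, had 63.9, 67.2, 70.1 and 77.4 CPM in control, 126 and 102 in NELF-B cKO and 166, 102 and 138 in TDP-43 cKO mice. Both cKO groups lay above the controls for Gem and Lama2. The comparisons with control share the 4 control mice.

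Set against each other, the cKO mice gave no edgeR call (0%), and the median over all genes was −0.03. There were 1012 genes at an unadjusted p under 0.05 (7.98%), 407 higher (3.21%) and 605 lower (4.77%), and DESeq2 called 26 (0.205%), 21 higher in TDP-43 cKO and 5 lower. All TDP-43 cKO mice lay above both NELF-B cKO mice for 1676 genes (13.2%) and below them for 1275 (10.1%). In NELF-B cKO against control 22 of 25 cell cycle genes had a log2 difference below 0, at a median of −0.35 (−0.51 to −0.20 over the alternatives), with 3 below every control, none above and 4 at an unadjusted p under 0.05. Between the cKO groups 16 of 25 lay above and none below, at a median of 0.94 (0.40 with the cells thinned). Rrm2 had 14.2 and 8.99 CPM in NELF-B cKO and 33.3, 45.5 and 42.9 in TDP-43 cKO mice, a log2 difference of 1.79 ± 0.26 (SE), adjusted p = 0.216, where NELF-B cKO mice also lay below every control. Ccna2 had 4.62 and 5.16 against 14.8, 19.6 and 16.1. In steroidogenesis 7 of 13 genes lay below and none above, at a median of −0.44 (−0.19 without NELF-B cKO replicate 2), with Fdx1, the ferredoxin that feeds electrons to Cyp11a1, at 3114 and 2399 CPM in NELF-B cKO and 2114, 1691 and 2028 in TDP-43 cKO mice. Lhcgr had 744 and 929.8 CPM in NELF-B cKO and 662, 338 and 396 in TDP-43 cKO mice (-0.86 ± 0.27 (SE), adjusted p = 0.548). Soat1, which esterifies cholesterol for storage, had 657 and 786 against 597, 301 and 353 CPM, and Ptgds, a prostaglandin synthase of adult Leydig cells, 29.7 and 27.7 against 6.43, 8.92 and 6.19. Stc1, a secreted glycoprotein chosen after its values were seen, had 17.2, 21.05, 25.2 and 30.8 CPM in control, 13.5 and 11.1 in NELF-B cKO and 38.7, 88.3 and 71.03 in TDP-43 cKO mice. It lay above every control in TDP-43 cKO and below every control in NELF-B cKO mice, and DESeq2 called the difference between the cKO groups at adjusted p = 1.47e-06, with adjusted p from 5.46e-07 to 0.846 over 21 alternatives.

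**Figure D5:**
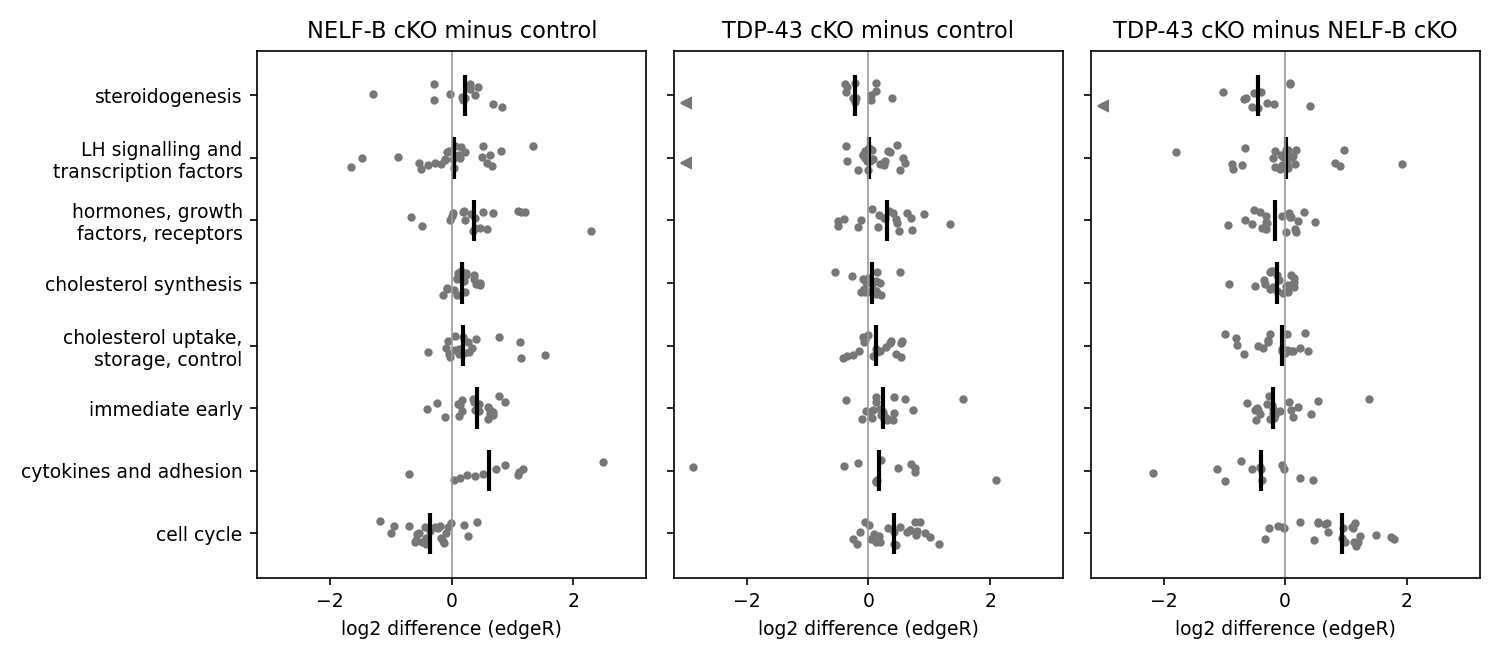
Log2 differences fitted by edgeR for the tested genes of 8 lists without the 6 genes of the rule, 1 grey point per gene, with a black bar at the median and left-pointing triangles for values below −3. Cell cycle genes lie mostly right of 0 in TDP-43 cKO against NELF-B cKO mice (median 0.94), and immediate early and cytokine genes lie mostly right of 0 in NELF-B cKO against control mice (medians 0.41 and 0.62).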

How the data were processed

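Whole testes of 9 mice at postnatal day 24 were profiled by droplet single cell RNA-seq with 3′ libraries. The authors demultiplexed with Cell Ranger 6.1.1 and mapped to mm10 and counted UMIs with Cell Ranger 7.0.0, whose default also counts intronic reads, and the deposited matrices hold raw, whole UMI counts of every barcode, without normalization. No doublets were removed here. UMI counts of the Leydig cells were summed per mouse, so that each mouse is 1 replicate. Sums of 12685 genes (filterByExpr) were tested with edgeR 4.0.16 (TMM, glmQLFit, glmQLFTest, two-sided) in R 4.3.3, with all 9 mice in 1 fit and Benjamini-Hochberg adjustment over all genes tested. Calls needed an adjusted p under 0.05, and DESeq2 1.42.0 was an alternative. Shares and ratios of cells were compared by exact permutation tests over mice. Cells were clustered with scanpy 1.11.5 (20 principal components, 15 neighbours, Leiden resolution 0.6). Each fit was tested on simulated data. The members, the gene lists and the tests were chosen with earlier results of these data known. Genes were to be named from the lists, from the 30 highest ratios to other barcodes and from the edgeR calls, of which there were none. The labels describe the controls as a mix of littermates and other mice, without saying which. Alternatives covered tool, scaling, filters, the marker rule, free RNA, thinned cells, leaving out each mouse and the replicate block.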

Additional observations from a re-analysis of the deposited data

Results flagged for a closer look

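In the control group, 5 of 47 measures had a highest mouse far from the other 3. The gap took more of the range than Dixon's 95% critical value for 4 samples. Among the measures, Igf1r, Hspa1a and Hspa1b were added by hand, and Cp was chosen after its values were seen. The count therefore cannot be set against a rate expected by chance. Igf1r, the IGF-1 receptor, reached 886 CPM in control replicate 2 against 210 to 312 in the other control mice. The inducible heat shock genes Hspa1a and Hspa1b reached 559 and 236 CPM, both in control replicate 4, where the other control mice had 19.7 to 37.7 and 12.6 to 18.4 CPM. Ccl2 reached 36.3 CPM and Cp 188 CPM, both in control replicate 3, and without that mouse the NELF-B difference was 1.52 for Ccl2 and 1.67 for Cp on the log2 scale.

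The 6 genes of the rule were also measured outside cells. In barcodes of 1 to 100 UMIs they took 0.0540% of UMIs in NELF-B cKO replicate 1, 0.144% in NELF-B cKO replicate 2, 0.139% in TDP-43 cKO replicate 1 and 0.0209% in TDP-43 cKO replicate 3, all above the highest control mouse, at 0.0128%. TDP-43 cKO replicate 2, at 0.0113%, was within the controls' range of 0.00634 to 0.0128%. The 3 highest values belonged to the 3 mice with the largest shares of Leydig cells.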

How the results depend on the processing

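Over 155 alternative values of the 9 comparisons, 119 stayed the same, 7 newly passed the threshold, 25 counts of called genes rose above 0 and 4 changed sign. Staying the same meant a count still at 0, or a difference with its direction and side of the threshold kept. Of 741 values for 36 named gene differences none changed sign and 69, in 19 of these differences, newly passed. The 4 sign changes were in Leydig cells per Sertoli cell of TDP-43 cKO mice: −0.0169 without control replicate 2, −0.00115 without control replicate 4, −0.198 without TDP-43 cKO replicate 1 and −0.0547 with the replicate block, against 0.33. Leaving out 1 mouse in turn gave −0.198 to 0.824 there, 2.58 to 4.28 and 1.29 to 2.57 for the NELF-B and TDP-43 shares and 2.20 to 3.05 for the NELF-B ratio. With edgeR on numbers of cells the NELF-B share difference was 3.50, the NELF-B ratio 2.20 and the TDP-43 share difference 2.30. Each was past the threshold of 0.05, Benjamini-Hochberg adjusted over the classes of cells in the fit. With the replicate block they were 3.78 and 2.42, past it, and 2.02, not past it. The labels do not pair mice by replicate number, and deviations of same-numbered mice correlated at −0.45 to 0.22. A check over so few mice cannot exclude a shared litter or batch.

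The numbers of genes called depended on the tool and the pool of mice. NELF-B cKO against control gave 0 in edgeR, 28 in DESeq2, 31 with no filter on low counts, 1 without cells of another class, 32 with DESeq2 after free RNA was subtracted, and 0 to 5 with 1 mouse left out, 5 without NELF-B cKO replicate 1. TDP-43 cKO against control gave 0 in edgeR, 704 in DESeq2, 869 with no filter, 9 with free RNA subtracted, 57 with thinned cells, 552 with only these groups in the fit and 62 with free RNA subtracted as well, 182 with DESeq2 and free RNA subtracted, 1 with the replicate block, and 0 to 842 with 1 mouse left out: 842 without NELF-B cKO replicate 2, 716 without NELF-B cKO replicate 1 and 4 without TDP-43 cKO replicate 1. TDP-43 cKO against NELF-B cKO gave 26 in DESeq2, 8 with no filter, 54 with DESeq2 and free RNA subtracted, 1 with the block and 0 to 3 with 1 mouse left out. Nelfb was −1.24 in DESeq2 with and without free RNA subtracted (adjusted p = 0.0420 and 0.0380, 0.0380 to 0.975 over the alternatives). The replicate block changed no other call. The causes were not tested. The limit of 0.25% of UMIs and the combined free RNA settings were chosen after seeing the data. A limit of 2% of UMIs left 0 to 10 cells per mouse and could not be computed.

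The limit of 0.5% cut through a continuum: 7 to 134 cells per mouse lay between 0.5 and 0.6%, and 4 to 127 with 3 of the genes between 0.4 and 0.5%. Control Leydig sums held as few as 878040 UMIs, so genes of a few CPM rest on a handful of UMIs.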
